A study of Mus musculus with 22 samples.

Results

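The comparison described here is that of 3T3 cells carrying a doxycycline-inducible E2F1 construct with 3T3 cells carrying the empty vector (EV), both after 12 h of doxycycline. It rests on 4 of the 22 RNA-seq libraries of the series, 2 in each group, chosen by their labels alone, and all 11208 genes of the deposited table were compared. NIH/3T3 is an established mouse embryonic fibroblast line. Both lines hold a stably integrated construct, both were starved for 48 h in 0.25% serum to bring them into a G0-like state, and both then received 500 ng/ml doxycycline, a drug that switches the construct's promoter on. The starved lines at 0 h, before the drug, are set beside the 12 h values because they show how the lines differed at rest, and the 6 h libraries because they are the most similar comparison. The remaining libraries are the lines at 2 h and EV cells given 10% serum. They entered the estimate of the spread and the means over all libraries, and 2 h values are given where named. The labels do not say whether each line is 1 clone, which species the E2F1 sequence comes from, or what other agents the cells were grown in besides the starvation medium.

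E2F1 is a transcription factor that binds DNA with a DP partner and switches on genes needed for the move from G1 into S phase. In resting cells the retinoblastoma protein and its relatives, the pocket proteins, hold E2F proteins in check, and cyclin D and cyclin E kinases release them when growth factors arrive. A second wave of genes, needed in G2 and mitosis, is controlled largely by other factors, among them B-Myb and FoxM1, through an element called the CHR. Resting fibroblasts express growth arrest genes, targets of FOXO factors and genes of the extracellular matrix.

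The values are normalized counts, that is, reads per gene after the authors' scaling between libraries, rounded to whole numbers. They summed to between 34043429 and 35695886 in the 0 h and 12 h doxycycline libraries, and every gene in the table had a mean of at least 99.6 over all libraries. Differences are given as log2(value + 1) of E2F1 minus EV, so that 1 stands for a 2-fold higher level in E2F1 cells, and were tested with limma, with 1 spread shared over the 11 groups. A gene is said to be called, or higher or lower, where its Benjamini-Hochberg adjusted p over all 11208 genes was at most 0.05. Nothing in the labels says that the 2 libraries of a group came from separate cultures, so the p-values measure the spread between these libraries, which may be technical. The median absolute log2 difference between the 2 libraries of a group was 0.128 in E2F1 and 0.137 in EV cells at 12 h. RNA was taken from whole cultures, so that a change in the share of cells in a cell cycle phase and a change in RNA per cell cannot be told apart.

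The E2f1 gene itself (chr2:154559407-154569892, mm10) was counted at 2683 and 2845 in the E2F1 libraries at 12 h and at 1345 and 1635 in the EV libraries. The groups did not overlap, and the log2 difference was 0.90 ± 0.11 (SE; limma adjusted p = 8.934e-07, n = 2 and 2). At 0 h the lines stood at 1703 and 1637 against 1635 and 1655, a difference of 0.02 that did not pass the test. At 6 h the difference was 1.34, and its change to 12 h did not pass the test (adjusted p = 0.05143). These counts are for the mouse gene, and whether they include the construct's transcript depends on its sequence, which the labels do not give.

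At 12 h the lines differed at most measured genes. Of 11208 genes, 4071 (36.3%) were higher in E2F1 cells and 3680 (32.8%) were lower. With a difference of at least 2-fold as well, 1635 genes (14.6%) were higher and 995 (8.88%) were lower. At 288 genes the level was at least 8-fold higher and at 10 at least 8-fold lower. The split depended on the scaling: quantile normalization, which moved the median over all genes from 0.02 to -0.14, gave 3358 higher and 4611 lower in all and 1407 higher and 1383 lower at 2-fold or more. The genes at least 2-fold higher had a median of 580 normalized counts in EV cells and 2264 in E2F1 cells. Those at least 2-fold lower had medians of 1113 in EV and 409 in E2F1 cells.

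The starved lines already differed before the drug, at 993 genes higher (8.86%) and 691 lower (6.17%). Scaling every library to 1 common total made the split 1345 higher and 524 lower, and without the first E2F1 library of 0 h 684 genes were called in all. Of the 1635 genes at least 2-fold higher at 12 h, 340 (20.8%) were also called higher at 0 h, and of the 995 lower, 236 (23.7%) were also called lower. The change of the difference from 0 h to 12 h was itself called at 3059 genes in the higher direction (27.3%) and 2606 in the lower (23.3%), or at 2659 and 3457 with quantile normalization. A subset of the largest 12 h differences was as large at 0 h. Ddx3y, a Y-linked RNA helicase gene and the only 1 of 4 listed Y-linked genes in the table, stood at 546 and 446 in E2F1 cells at 12 h against 9 and 4 in EV cells, and at 580 and 521 against 9 and 4 at 0 h. The log2 difference was 6.13 at 12 h and 6.28 at 0 h. In between the EV libraries were higher, at 103 and 71 at 2 h and 31 and 18 at 6 h, and the difference at 6 h was 4.11, from which the change to 12 h was called (2.02). Brinp3 behaved alike (5.90 at 12 h and 5.74 at 0 h), as did the overlapping membrane protein genes Tmem176a and Tmem176b, whose differences were 4.87 and 4.67 at 12 h after 6.12 and 5.96 at 0 h. Among lower genes, Rab6b, a Rab GTPase gene, stood at 120 and 120 against 544 and 500 at 12 h and at 87 and 141 against 520 and 493 at 0 h. The change of the difference since 0 h did not pass the test for any of these 5 genes.

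**Figure D1:**
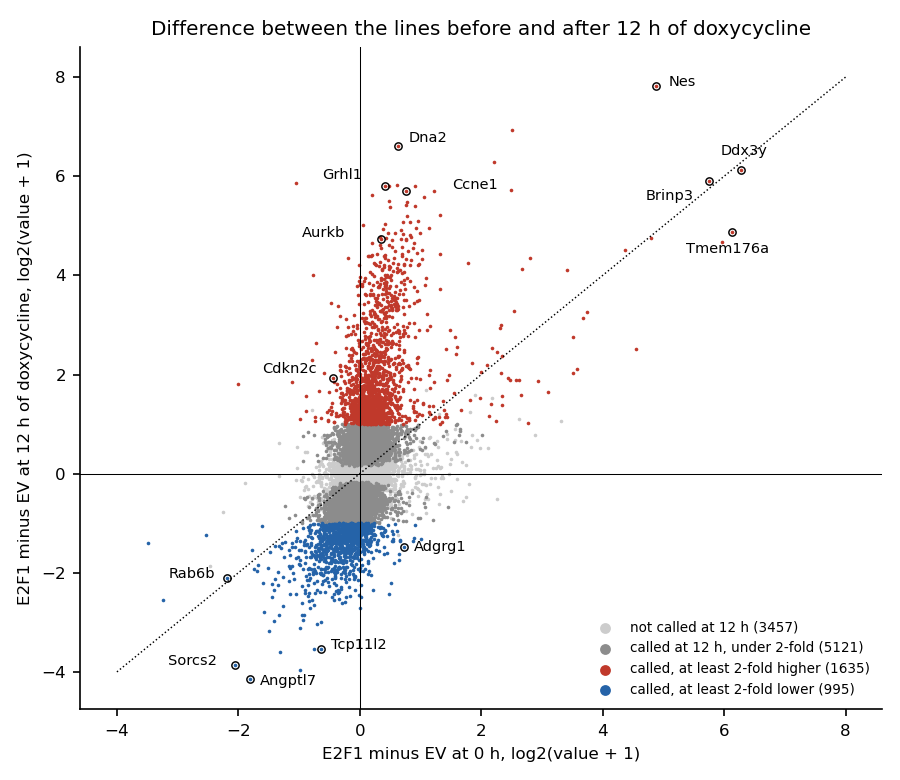
Each point is 1 of 11208 genes, with the log2 difference of the E2F1 and EV lines before doxycycline on the x axis and after 12 h on the y axis, and the dotted line marks equal differences. Ddx3y and Brinp3 lie far out on both axes, at 6.28 and 5.74 before and 6.13 and 5.90 after, whereas Ccne1 lies at 0.77 and 5.70.

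In the cyclin and kinase genes that open S phase, 7 of 9 measured members were higher and 1 was lower at 12 h. Over all genes the shares higher and lower were 36.3% and 32.8%. The list's median log2 difference was 0.91 beside 0.02 over all genes. Ccne1 (chr7:38097984-38107534), which encodes the cyclin that activates Cdk2 at the G1/S boundary, was counted at 9972 and 10090 in E2F1 cells and at 165 and 224 in EV cells. The E2F1 libraries lay far above the EV libraries, with a log2 difference of 5.70 ± 0.22 (SE; limma adjusted p = 7.531e-13), a 51.9-fold higher level. At 0 h Ccne1 stood at 666 and 544 against 281 and 445, so that by 12 h both E2F1 libraries lay above and both EV libraries below their line's resting values. Its sister gene Ccne2, which overlaps Ints8, differed by 5.42, and Cdk2, their kinase, which overlaps Pmel, by 2.28. Cdc25a, the phosphatase that activates Cdk2, differed by 1.87. Ccnd1, the cyclin that growth factors induce, was not called, with 1360 and 1157 against 1134 and 1176 and a difference of 0.12. Its relative Ccnd2 was the member that was lower, by 1.23 on the log2 scale. Before the drug, 4 of the 9 were already called higher, where 8.86% of all genes were, with a median of 0.02. The change of the difference from 0 h to 12 h was called higher at 6 of the 9 and lower at 1. Over all genes the shares called higher and lower for this change were 27.3% and 23.3%.

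The E2F and pocket protein family was higher in 9 of 12 measured members and lower in none, beside 36.3% and 32.8% of all genes. The family's median was 1.31. E2f2, another activator, stood at 1139 and 989 in E2F1 cells against 9 and 35 in EV cells, a log2 difference of 5.81 that was 4.88 without the first EV library of 12 h and 5.31 with 8 in place of 1 added before the logarithm. E2f7 and E2f8, the atypical E2Fs that repress E2F target genes, were higher by 5.37 and 5.57. E2f7 reached 9316 and 8220 from 873 and 700 at 0 h, while EV cells went from 464 and 664 to 223 and 199. Among the pocket proteins, Rbl1, which encodes p107, was higher by 3.36 and Rb1 by 1.73, whereas Rbl2, which encodes p130, was not called (0.10). The DP partner gene Tfdp1 was higher by 2.09. E2f4, which encodes the main repressor E2F of resting cells, was not called, with 3216 and 3182 against 2964 and 2778. Before the drug, 3 of the 12 were already called higher, where 8.86% of all genes were, with a median of 0.22. For a larger difference at 12 h 8 of the 12 were called, beside 27.3% of all genes.

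Genes that license and fire replication origins were higher in 21 of 23 measured members, 19 of them by at least 2-fold. Of all genes 36.3% were higher, and 14.6% by at least 2-fold. The list's median was 2.29. Mcm3 (chr1:20802968-20820312), a subunit of the MCM helicase, stood at 7063 and 7692 in E2F1 cells against 852 and 1013 in EV cells, a log2 difference of 2.99 ± 0.17 (SE; limma adjusted p = 3.248e-11). It was already higher in the E2F1 line at rest, with 3274 and 2985 against 1483 and 2453 (0.71, adjusted p = 0.008192). The 2 EV libraries at 0 h lay further apart than the others, and the same was seen at several cell cycle genes. Cdc6, which loads the MCM complex, was counted at 1602 and 1770 against 78 and 87, a difference of 4.34, and at rest at 609 and 538 against 226 and 351. Gmnn, the inhibitor of licensing, was higher by 4.22. The exceptions were Orc3, which was not called (0.16), and Orc4, which was lower by 0.38. In this group 12 of 23 members were also called higher at 0 h, where 8.86% of all genes were, with a median of 0.53. For a larger difference at 12 h than at 0 h 20 of 23 were called, beside 27.3% of all genes. The 0 h count was 3 without the first EV library of 0 h, 4 without the first E2F1 library of 0 h and 13 without the second EV library, whereas the count of larger differences was 19 or 20 without any 1 of the 8 libraries.

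All 25 genes of the replication fork were at least 2-fold higher, where 14.6% of all genes were, with a median of 2.75. The largest difference was at Dna2, a nuclease and helicase that trims Okazaki fragments, with 5854 and 5467 against 66 and 49, a log2 difference of 6.61 and the third largest of all genes named by the rule for the extremes. Clspn, which carries the checkpoint signal at stalled forks, stood at 9432 and 9296 against 256 and 298 (5.08). The sliding clamp gene Pcna, which has the named pseudogenes Pcna-ps1 and Pcna-ps2 with which reads could be shared, was higher by 3.32. The 9 genes of deoxynucleotide supply were also all at least 2-fold higher, with a median of 3.46. Rrm2, the regulated subunit of ribonucleotide reductase, was counted at 18684 and 18266 against 403 and 413, a difference of 5.50 ± 0.25 (SE; limma adjusted p = 2.675e-12). At rest Rrm2 stood at 1617 and 1341 against 785 and 1406, and the groups overlapped. The thymidine kinase gene Tk1, which overlaps Afmid, was higher by 4.50. Before the drug, 8 of the 25 fork genes and 3 of the 9 deoxynucleotide genes were already called higher, where 8.86% of all genes were. Their medians at 0 h were 0.36 and 0.46. All members of both lists were called for a larger difference at 12 h, beside 27.3% of all genes. A fit of only the 2 groups of 0 h called 2 fork genes and 0 deoxynucleotide genes higher.

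The promoters of 3 of these genes and of 1 mitotic gene are shown because they carry the letters of an E2F site. They run from 250 bases before to 50 after the RefSeq transcript start and are taken from GRCm38.p6 (mm10), 5′ to 3′ on the strand of the gene, with E2F sites and CHR elements in capitals. The Mcm3 promoter, chr1:20820263-20820562 on the minus strand, has 2 sites after the start, at 20 and 39 bases. The Clspn promoter, chr4:126556730-126557029 on the plus strand, has 1 at 22 bases, and the E2f2 promoter, chr4:136172024-136172323 on the plus strand, 1 at 40 bases. The Cdk1 promoter, chr10:69352863-69353162 on the minus strand, has 1 E2F site 131 bases before the start and 2 CHR elements 71 and 15 bases before it. Among other cell cycle genes named above, E2f1, Ccne1, E2f8, Rbl2, Dna2, Pcna, Rrm2 and Tk1 had no E2F site in this window. Cdk2, Cdc25a, E2f7, Rbl1, Cdc6 and Orc3 had 1 each.
Mcm3: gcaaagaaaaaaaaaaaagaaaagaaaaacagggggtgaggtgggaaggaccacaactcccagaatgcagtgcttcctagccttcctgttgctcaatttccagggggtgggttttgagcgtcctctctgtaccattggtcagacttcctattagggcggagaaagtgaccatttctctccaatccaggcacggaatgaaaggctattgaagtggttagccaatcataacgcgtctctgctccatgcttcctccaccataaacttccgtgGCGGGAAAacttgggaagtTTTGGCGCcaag
Clspn: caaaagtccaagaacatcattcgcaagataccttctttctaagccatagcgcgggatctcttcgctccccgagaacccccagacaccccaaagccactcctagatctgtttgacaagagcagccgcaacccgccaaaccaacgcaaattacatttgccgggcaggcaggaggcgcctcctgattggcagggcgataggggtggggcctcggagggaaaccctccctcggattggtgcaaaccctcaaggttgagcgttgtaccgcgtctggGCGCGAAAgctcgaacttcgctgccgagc
E2f2: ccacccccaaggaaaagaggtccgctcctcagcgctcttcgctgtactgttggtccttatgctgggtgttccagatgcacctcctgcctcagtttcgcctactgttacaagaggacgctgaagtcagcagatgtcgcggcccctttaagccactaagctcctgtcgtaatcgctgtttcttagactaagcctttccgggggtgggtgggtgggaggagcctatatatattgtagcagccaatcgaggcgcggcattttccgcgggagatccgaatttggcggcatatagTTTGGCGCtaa
Cdk1: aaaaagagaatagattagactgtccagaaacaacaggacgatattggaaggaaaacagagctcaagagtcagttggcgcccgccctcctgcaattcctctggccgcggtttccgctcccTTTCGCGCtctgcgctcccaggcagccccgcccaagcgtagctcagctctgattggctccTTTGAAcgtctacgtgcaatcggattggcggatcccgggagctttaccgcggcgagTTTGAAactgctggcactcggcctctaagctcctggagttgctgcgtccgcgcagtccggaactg

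Across promoters, the share that held one of the E2F site letters TTTCCCGC, TTTCGCGC, TTTGCCGC or TTTGGCGC on either strand was 9.63% for the genes at least 2-fold higher at 12 h (153 of 1588 promoters) and 13.2% for those at least 4-fold higher. It was 1.96% for the genes at least 2-fold lower, 3.38% for the genes not called, 4.21% for all genes tested (8609 of 11208 genes had a promoter in the table) and 2.26% for the whole table. For the licensing, fork and deoxynucleotide genes together it was 28.6% (16 of 56 promoters), and for the mitotic genes 3.03% (1 of 33), the 1 being the Cdk1 promoter printed above. The CHR letters TTTGAA or TTCGAA were found in 19.6% of those 56 promoters and in 75.8% of the 33 promoters of the mitotic genes, with 13.8% over all genes tested. The CCAAT letters were in 75.8% of the mitotic promoters, in 28 of the 56 replication promoters and in 38.6% of all those tested. A promoter without the letters may hold variants that were not searched. These are descriptions of the letters in the windows and are not measured binding.

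**Figure D2:**
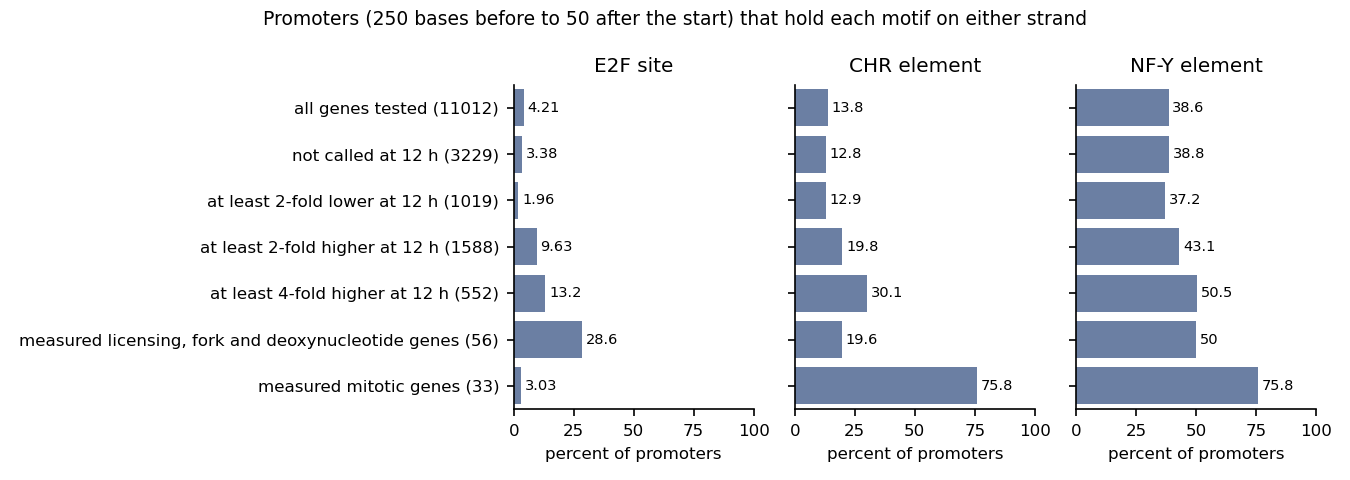
Bars give the percent of promoters that hold the E2F site letters, the CHR letters or the CCAAT letters (the NF-Y element) on either strand, for sets of genes by their 12 h difference and for 2 lists. The E2F letters are most frequent in the licensing, fork and deoxynucleotide genes (28.6%) and the CHR letters in the mitotic genes (75.8%).

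Repair and chromatin genes that work behind the fork were higher as well. All 19 genes of homologous recombination and the Fanconi pathway were at least 2-fold higher, where 14.6% of all genes were, with a median of 3.87. Brca1, a scaffold of recombination, stood at 7672 and 7363 against 217 and 306, a log2 difference of 4.86. Exo1, the nuclease that resects breaks, was higher by 4.95. Before the drug, 6 of these 19 were already called higher, where 8.86% of all genes were, with a median of 0.49. All 19 were called for a larger difference at 12 h, beside 27.3% of all genes. A fit of only the 2 groups of 0 h called 1 of the 19 higher. Mismatch and uracil repair was less uniform: 6 of 7 were higher, where 36.3% of all genes were, with a median of 1.83. Ung, the uracil glycosylase gene, was higher by 3.04, and Msh6, a mismatch recognition gene that overlaps Fbxo11, by 1.83. All 11 genes that copy chromatin were at least 2-fold higher, with a median of 3.21, led by Asf1b, a histone chaperone gene (3442 and 3653 against 89 and 192, a difference of 4.75). Of these 11, 7 were already called higher at 0 h, where 8.86% of all genes were, with a median of 0.52. All 11 were called for a larger difference at 12 h, beside 27.3% of all genes. The 0 h count was 1 to 3 without the first EV library or either E2F1 library of 0 h and 9 without the second EV library. Uhrf1, which guides maintenance methylation, was higher by 3.96.

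All 37 mitotic genes were at least 2-fold higher at 12 h, where 14.6% of all genes were. The median of the 37 was 3.83, with a range from 2.78 to 5.40. Ccna2, the cyclin of S phase and G2, which overlaps Exosc9, stood at 16658 and 16922 in E2F1 cells and at 494 and 833 in EV cells, a difference of 4.71 ± 0.33 (SE; limma adjusted p = 5.872e-10). Cdk1 (chr10:69335146-69352938), the kinase that drives mitosis and whose promoter is printed above, was counted at 14388 and 14517 against 824 and 1317 (3.79). At rest Cdk1 stood at 2866 and 2348 against 1882 and 3412, and the lines overlapped. Aurkb, the kinase of the chromosomal passenger complex, stood at 8574 and 8949 against 289 and 373, a difference of 4.73. Mybl2, which encodes B-Myb, was higher by 5.40, and the kinetochore gene Nuf2 by 5.10. At rest 2 of the 37 were called higher, where 8.86% of all genes were, and the median was 0.35. That count was 0 without the first EV library or either E2F1 library of 0 h and 6 without the second EV library. The direct difference at 12 h is made of a higher level in E2F1 cells and a lower one in EV cells than at 0 h: the median change since 0 h over the 37 genes was 2.20 in E2F1 cells and -1.29 in EV cells. The median changes were 1.66 and -0.65 for the fork genes and 2.06 and -1.28 for the recombination genes. These changes share their 12 h libraries with the difference between the lines.

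**Figure D3:**
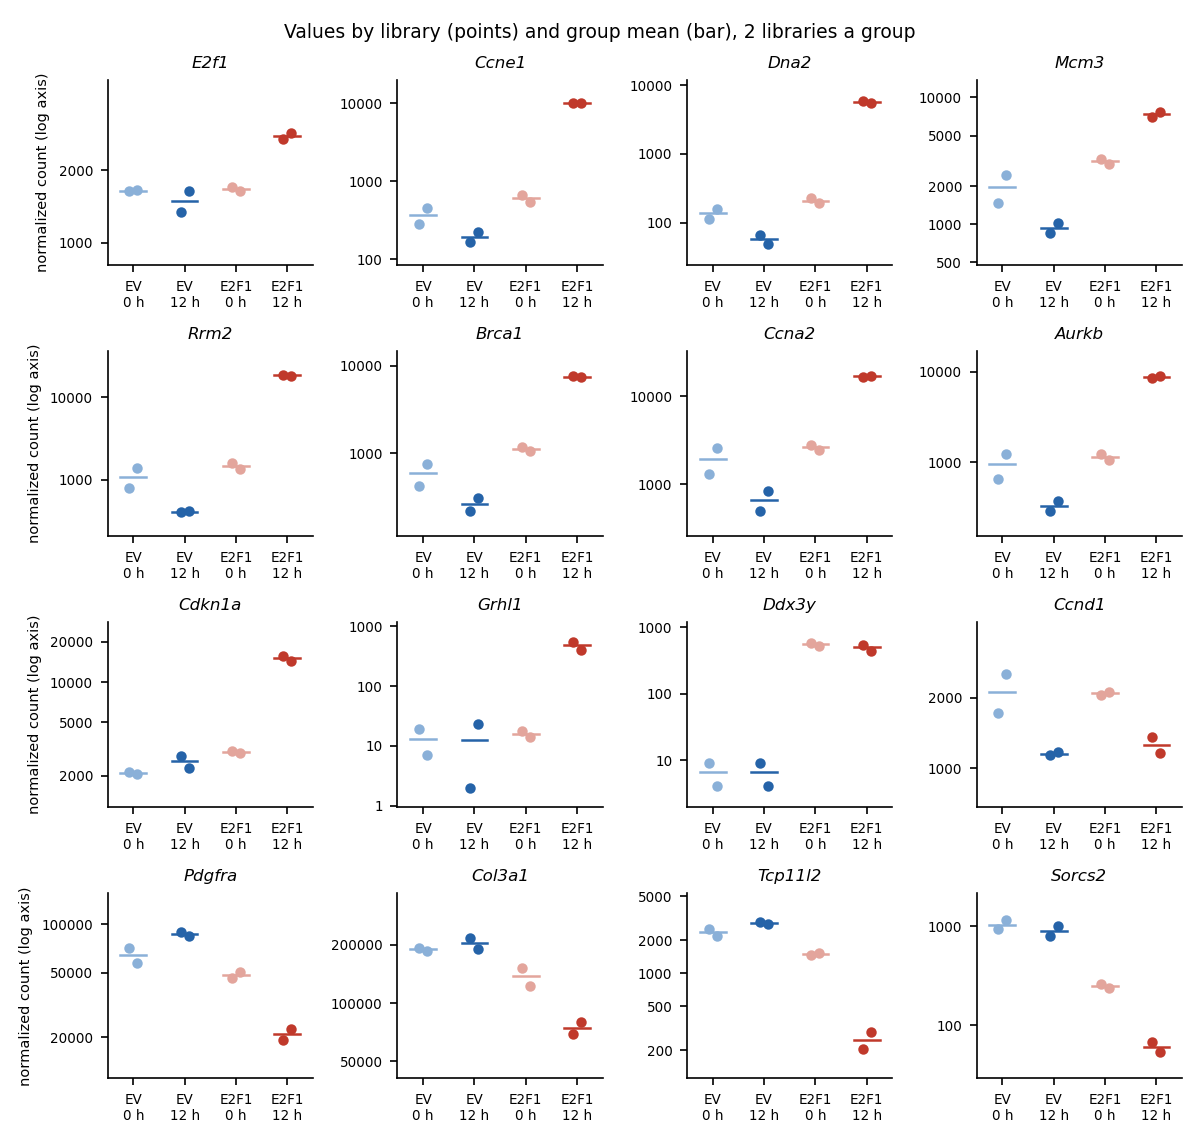
Points are the normalized counts of single libraries on a log axis and bars the group means, for the EV and E2F1 lines at 0 h and 12 h of doxycycline, 2 libraries a group. Ccne1, Dna2, Rrm2 and Brca1 are higher in E2F1 and lower in EV cells at 12 h than at 0 h, Ddx3y is apart at both times, and Ccnd1 overlaps between the lines at rest.

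The mitotic genes were also those whose 12 h difference was furthest from that at 6 h among the lists of cell cycle genes, with a median change of 2.56. Over all genes the difference was larger at 12 h than at 6 h at 1120 (9.99%) and smaller, or more negative, at 1272 (11.3%), which were 679 and 681 without the second EV library of 6 h. All 37 mitotic genes were called for a larger difference at 12 h, their median having been 1.22 at 6 h, and 35 were without that EV library. Aurkb differed by 1.47 at 6 h and 4.73 at 12 h, and Cdk1 by 1.31 and 3.79. The largest such changes by rule were at Nes, Eme1, a nuclease gene of recombination that overlaps Lrrc59 (1.23 and 4.93), the kinetochore gene Spc25 (1.30 and 4.78), Aurkb and Lrr1 (1.49 and 4.74). By contrast none of the 9 G1 cyclin and kinase genes had a called increase after 6 h, 1 had a called decrease, and Ccne1 was at 5.18 and 5.70. Licensing lay between, with 7 of 23 called higher and medians of 2.03 at 6 h and 2.29 at 12 h, and so did the fork, with 14 of 25 (8 without that EV library and 8 without the first EV library of 12 h) and medians of 1.86 and 2.75. In the recombination list 15 of 19 were called for an increase, from a median of 2.14 to 3.87. Of the 1635 genes at least 2-fold higher at 12 h, 1504 (92.0%) were already called higher at 6 h and 0 were called lower. Of the 995 lower, 830 (83.4%) were called lower at 6 h and 1 higher.

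**Figure D4:**
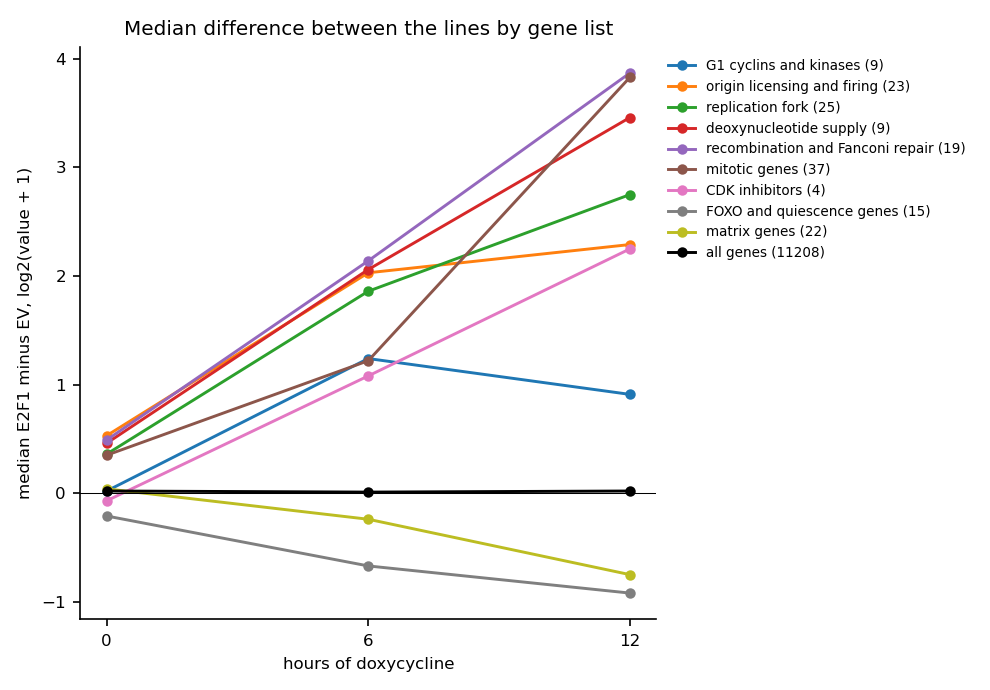
Points are the medians, over the measured members of each list, of the log2 difference of E2F1 and EV cells at 0 h, 6 h and 12 h of doxycycline. The mitotic list goes from 0.35 and 1.22 to 3.83, whereas the G1 cyclin list is at 0.02, 1.24 and 0.91.

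Inhibitors of the cycle were higher as well. All 4 measured inhibitors of cyclin-dependent kinases were higher, where 36.3% of all genes were, with a median of 2.25. The other 3 of the 7 listed, Cdkn1c, Cdkn2a and Cdkn2b, were not in the table. Cdkn1a, which encodes p21 and is a p53 target, was counted at 15754 and 14293 against 2820 and 2298, a difference of 2.56 ± 0.10 (SE; limma adjusted p = 9.44e-13). Cdkn2d, which encodes p19 of the INK4 family, stood at 3211 and 3470 against 366 and 476 (3.00). Cdkn2c, which encodes p18, stood at 23508 and 26174 against 6247 and 6703 (1.94). Its direction differed from rest, when the E2F1 line was at 5456 and 5039 and the EV line at 6887 and 7380, a called difference of -0.44. Cdkn1b, which encodes p27 and restrains Cdk2 in resting cells, was higher by 0.80, with 10621 and 10249 against 5688 and 6324. Before the drug, 1 of the 4 was called higher and 1 lower, beside 8.86% and 6.17% of all genes, with a median of -0.07. All 4 were called for a larger difference at 12 h, beside 27.3% of all genes.

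Genes linked to apoptosis through E2F1 had no common direction: 5 of 12 measured members were higher and 3 lower, with a median of 0.16. Over all genes 36.3% were higher and 32.8% lower, so these counts lay near the shares of all genes. The other 4 of the 16 listed, Bik, Hrk, Pmaip1 and Trp73, were not in the table. Casp8, of the death receptor pathway, stood at 2044 and 2371 against 603 and 801 and was higher by 1.66, and Siva1 was higher by 1.49, while Bbc3, which encodes Puma, was not called (0.07). The 3 lower members were Ppp1r13b (-0.68), Bid (-0.54) and Bcl2l11 (-0.35), the last 2 of which encode proteins that promote death at the mitochondrion. Bcl2l11 was not called without the first E2F1 or the first EV library of 12 h, and Bid without the second E2F1 or the second EV library. Of 16 measured p53 targets, 11 were higher and 2 lower, with a median of 0.59, and 1 was lower without the first E2F1 or the second EV library of 12 h. At 0 h 5 of the 16 were already called higher and 1 lower, beside 8.86% and 6.17% of all genes. The median of the 16 was then 0.28. For an increase of the difference since 0 h 7 were called, beside 27.3% of all genes. The 0 h count of higher targets was 2 without the second EV library of 0 h and 3 without either E2F1 library. All but 2 of the 11 differed by less than 2-fold. Apart from Cdkn1a the exception was Eda2r, a death receptor gene, which was higher by 1.39 at 12 h and differed by -0.07 at 6 h. Aen, a nuclease gene, and Btg2, an antiproliferative gene, were higher by 0.94 and 0.83, and Fas was not called (0.20).

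Genes outside these lists also stood among the extremes. Nes, which encodes nestin, was counted at 378 and 406 in E2F1 cells and at 0 and 2 in EV cells at 12 h, and at 116 and 147 against 19 and 0 at rest. Its log2 difference of 7.83 rests on values near 0 and was 5.48 with 8 in place of 1 added before the logarithm. Lrrc75b (464 and 417 against 0 and 12) and the transporter-like gene Slc35g1 (940 and 679 against 4 and 20) had differences of 6.93 and 6.29. These also rest on low EV values, and without 1 EV library of 12 h they ranged from 5.08 to 8.78 and from 5.25 to 7.32. Neurl1b, an E3 ligase gene of the Notch pathway, stood at 738 and 720 against 11 and 12 at 12 h and at 10 and 18 against 16 and 52 at rest. Grhl1, an epithelial transcription factor gene, was at 555 and 408 against 2 and 23, and at 18 and 14 against 19 and 7 at rest. The receptor phosphatase gene Ptpru went with them, with 912 and 995 against 28 and 12. These 3 genes were at 52 normalized counts or less in every library of both lines before the drug. No gene in the table had a mean under 99.6 over all libraries. Genes this low at rest are therefore in it only where other libraries were higher. Esco2, which acetylates cohesin in S phase, and Pbk, a mitotic kinase gene, were higher by 5.83 and 5.81 and had been at 469 and 443 and at 924 and 713 in the resting E2F1 line.

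Most genes of the resting state and of the matrix were lower in E2F1 cells. Of 15 measured FOXO targets and quiescence genes, 11 were lower and 2 higher, beside 32.8% and 36.3% of all genes. Their median was -0.92. Pdgfra, the PDGF receptor gene that is high in quiescent fibroblasts, was counted at 19279 and 22649 in E2F1 cells against 89689 and 84154 in EV cells, a difference of -2.06 ± 0.19 (SE; limma adjusted p = 3.065e-08). It was at 46438 and 50638 against 71387 and 57591 at rest, where the difference was not called. Pik3ip1, an inhibitor of PI3 kinase, stood at 356 and 473 against 2220 and 2532 (-2.53), Ccng2 at 852 and 947 against 2912 and 2819 (-1.67), and Sesn3 differed by -1.59. For these 3 genes both E2F1 libraries lay below and both EV libraries above their line's libraries at rest. Before the drug, 2 of the 15 were called higher and 2 lower, beside 8.86% and 6.17% of all genes. The median difference of the 15 was then -0.21. The median change of the list since 0 h was -0.78 in E2F1 cells and 0.24 in EV cells. Cited2 was not called (-0.03), and the 2 higher members were Foxo1 (0.62) and Gas6, a growth arrest gene (0.64 after 1.75 at rest), of which Gas6 was not called without the second E2F1 library or either EV library of 12 h.

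Matrix genes were lower in 15 of 22 measured members and higher in 2, beside 32.8% and 36.3% of all genes. Their median was -0.75. Quantile normalization, which pulls the most abundant genes towards the other libraries, gave 12 lower and 1 higher and a median of -0.48. Col3a1, the type III collagen gene, stood at 69039 and 79913 against 218344 and 191004, a difference of -1.46. Timp3, the inhibitor of matrix proteases, which overlaps Syn3, stood at 6022 and 6606 against 22578 and 24202 (-1.89). Col5a1 and the crosslinking enzyme gene Lox differed by -1.24 and -1.16, and Fn1, the fibronectin gene, was not called (-0.17). Lum and Timp1 were the 2 members that were higher, by 0.79 and 0.87, of which Lum had differed by 2.01 at rest, and was not called without the second E2F1 or the second EV library of 12 h. Col5a3, a minor collagen gene that was not in the list, was among the extreme lower genes, at 517 and 618 against 5570 and 4663 (-3.17), and its difference was -1.50 at rest. Before the drug, 5 of the 22 listed matrix genes were called higher and 0 lower, beside 8.86% and 6.17% of all genes. Their median was 0.04. The change of the difference from 0 h to 12 h was called lower at 15 of the 22 and higher at 1. Over all genes the shares called lower and higher for this change were 23.3% and 27.3%. The 9 fibroblast markers, which mark the labelled cell type, were all measured. They are not separate from the lists above: Col1a1, Col1a2, Col3a1 and Fn1 are also matrix genes, and Pdgfra is in the FOXO and quiescence list. The summed level of the 9 markers was 670874 to 693382 in E2F1 cells and 1119833 to 1230836 in EV cells at 12 h. It was 1072435 to 1214747 in the 4 libraries at rest. At 12 h 6 of 9 were lower and 0 higher, beside 32.8% and 36.3% of all genes (3 of 9 lower with quantile normalization). Of 12 markers of epithelial, immune, endothelial, neural and muscle cells 2 were in the table: Nes, above, and Tubb3, which overlaps Gm20388 and stood at 11 and 25 against 116 and 197.

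Of the other large lower differences, Tcp11l2 was the clearest, with 203 and 293 in E2F1 cells against 2914 and 2788 in EV cells (-3.54) and 1467 and 1544 against 2516 and 2204 at rest. Sorcs2, a sorting receptor gene, stood at 67 and 54 against 794 and 1001 (-3.87) and was apart at rest as well (258 and 237 against 926 and 1150, -2.06). Angptl7, which lies within Mtor, differed by -4.14 after -1.81 at rest. Phyh, a peroxisomal fatty acid enzyme gene, was at 20 and 31 against 304 and 318 (-3.59), and Ppp1r3b, a glycogen-targeting phosphatase subunit gene, at 52 and 6 against 337 and 265 (-3.96). In these 5 genes the E2F1 libraries lay below both EV libraries at both times. Tcea3 and Tubb3 were among the genes whose difference grew most after 6 h, from -1.44 to -3.53 and from -0.76 to -3.11.

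**Figure D5:**
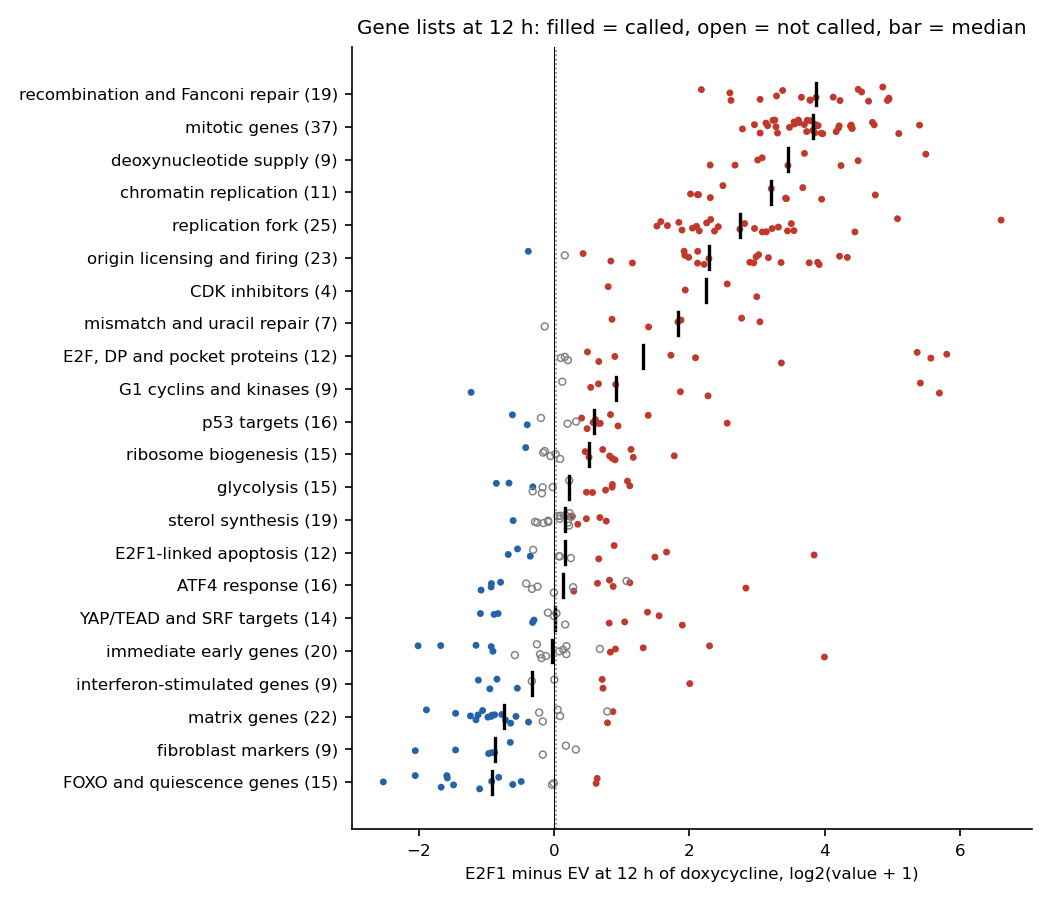
Each point is 1 measured gene of a list and the bar is the list's median, with the log2 difference of E2F1 and EV cells after 12 h on the x axis. The replication, repair and mitotic lists lie wholly or almost wholly above 0, whereas most members of the matrix and the FOXO and quiescence lists lie below it.

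Growth factor response genes did not share a direction. The shares over all genes at 12 h were 36.3% higher and 32.8% lower. Of 20 immediate early genes 5 were higher and 5 lower, with a median of -0.03, and 5 were higher and 8 lower with quantile normalization. Nr4a3 and Nr4a2, which encode orphan nuclear receptors, were higher by 4.00 and 2.30. Nr4a2 stood at 814 and 690 against 141 and 163, although at rest it had been lower in the E2F1 line (182 and 106 against 255 and 229). Nr4a3 was low throughout (156 and 64 against 7 and 4). Egr1 was higher by 1.32, with 4140 and 3419 against 1701 and 1340, but it had been at 4508 and 6762 against 3313 and 3708 at rest, so that both lines were below their own resting level. Fosb was lower by 2.01 on the log2 scale and Klf2 by 1.68, the latter after -1.02 at rest. Fos, Jun and Myc were not called, at 0.68, 0.07 and -0.19. Among targets of YAP and SRF, 5 of 14 were higher and 5 lower, with a median of 0.01 that was -0.01 with equal totals and -0.17 with quantile normalization, and 3 were lower without the second E2F1 or the first EV library of 12 h. Ccn1 and Ccn2 were higher by 1.38 and 1.55 and, like Egr1, lay below their resting levels in both lines (Ccn2: 716 and 456 against 162 and 233, after 886 and 1138 against 539 and 1298).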

How the data were processed

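Polyadenylated RNA was sequenced in 22 libraries as paired 150 bp reads, per the labels' protocols. The submitters' processing notes name FastQC, Trimmomatic, HISAT2, featureCounts and DESeq2 and the build mm10, without roles. The authors deposited normalized counts rounded to whole numbers, a score that no count model was applied to. Whether the counting used strand is not given in the sources used here, so genes said to overlap another, and genes with pseudogenes, are uncertain. The value of 1 read could be read off the low values in 16 of 22 libraries (30500000 to 50300000 reads), so whole reads were not recovered. The logarithm to base 2 of each value plus 1 was fitted in limma (version 3.58.1, R 4.3.3), with 1 mean per group over all 22 libraries (11 residual degrees of freedom), a mean-variance trend and Benjamini-Hochberg adjustment over 11208 genes. On simulated data, 85 of 100 genes changed 2-fold and 99 of 100 changed 4-fold were recovered at 12 h, with 11 other genes called. The simulation changed only those genes and drew independent noise around each gene's mean, whereas 7751 genes were called in the real comparison. Its rates therefore do not carry over to the calls at 12 h. The authors' own comparison tables hold no comparison of the lines and were not used. Positions are from GENCODE M21 (GRCm38), promoters from RefSeq.

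The lists and the rule for named genes were chosen with earlier results of these data known. The rule takes the 10 highest and 10 lowest 12 h differences, the 5 most extreme at 0 h and for each change since 0 h and 6 h, up to 4 called and 2 uncalled members of each list, and 14 cell cycle and growth factor genes. It asks for a mean of at least 50. Named outside it, after their values were seen, were Ccnd2, Rb1, Tfdp1, Orc4, Ppp1r13b, Bid, Bcl2l11, Lum, Timp1, Foxo1, Gas6, Npm1, Isg15, Ifi35, Adgrg1, Ndst3 and Junb, and the genes whose promoters are shown were picked likewise. Some named genes are not reported here.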

Additional observations from a re-analysis of the deposited data

Results flagged for a closer look

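The following results differed in direction between times under the same contrast of E2F1 with EV cells, by the test of the difference itself. At 84 genes the lines were called apart in opposite directions at 6 h and 12 h, with a called change between them. Of these, 28 were lower at 6 h and higher at 12 h, and 56 were higher at 6 h and lower at 12 h. Junb, an immediate early gene, was higher in E2F1 cells by 0.42 at 6 h and differed by -0.91 at 12 h. At 18 genes the lines were called apart in opposite directions at rest and at 12 h, with a difference of at least 2-fold at 12 h and a called change, and 14 of them were higher in E2F1 cells at 12 h.

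Cdkn2c, the p18 inhibitor gene, was lower in the E2F1 line at rest and higher at 12 h, a change of the difference of 2.38 (limma adjusted p = 2.445e-10). Nr4a2, an orphan nuclear receptor gene, changed by 3.09 in the same direction (adjusted p = 3.435e-07), and Ndst3, a heparan sulfate enzyme gene, by 3.81. Adgrg1, an adhesion receptor gene, went the other way. Its mean was 1343 normalized counts in E2F1 and 3734 in EV cells at 12 h, and 229.5 and 141 at rest, so that EV cells on doxycycline without added E2F1 also stood far above their resting level.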

How the results depend on the processing

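Beside 7751 calls at 12 h, testing against a 2-fold difference in place of 0 gave 1370 (1018 higher and 352 lower), and a mean of at least 500 left 610 genes at least 2-fold lower. At 0 h the test against a 2-fold difference called 20 genes (16 higher and 4 lower), and a fit of only the 2 groups 652 (385 and 267). That same test called 728 genes (656 and 72) for the change since 0 h and 11 (11 and 0) for the change since 6 h, where limma without the 2-fold limit called 2392 and 20 genes in the lower direction had an unadjusted p under 0.05 in that test. Leaving out 1 library at a time, which leaves 1 library in a group and assumes that it varies like the others, gave 6842 to 7082 calls at 12 h. At 0 h it gave 684 to 1236 (384 to 798 higher and 300 to 438 lower), for the change since 0 h 4912 to 5419, and for the change since 6 h 1360 to 2169 (679 to 1023 in the higher direction and 681 to 1146 in the lower). The labels do not say whether same-numbered libraries were handled together. Deviations of same-numbered libraries correlated at 0.24 at 12 h and 0.09 at 0 h, where all pairs of groups ranged from -0.28 to 0.45. The replicate block gave 7825 calls at 12 h and 1840 at 0 h, beside 7751 and 1684 without it. These values do not settle whether the libraries were paired. Of 120 genes named in the text, quantile normalization turned the sign of 8 that were not called: Bbc3 (-0.11), Ccnd1 (-0.05), E2f4 (-0.03), Fn1 (0.28), Jun (-0.11), Orc3 (-0.01), Pkm (0.08) and Rbl2 (-0.09). Without 1 library of 12 h, Bbc3 ranged from -0.04 to 0.17, Jun from -0.03 to 0.17 and Rbl2 from -0.02 to 0.22. A gene not called is not shown to be equal: the median width of the 95% interval of such genes was 0.56 on the log2 scale.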

Other observations

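Several metabolic and signalling lists not described above were split. Beside them, 36.3% of all genes were higher and 32.8% lower at 12 h. Ribosome biogenesis genes were higher in 9 of 15 measured members and lower in 1, with a median log2 difference of 0.51, and 4 were lower with quantile normalization and 2 without the first EV library of 12 h. At 0 h 7 of the 15 were already called higher (median 0.24), where 8.86% of all genes were. For an increase since then 6 were called, beside 27.3% of all genes, and the list's median change was 0.09. The 0 h count was 2 without the first E2F1 or the first EV library of 0 h and 4 without the second E2F1 library. Nop56, a core protein of the snoRNPs that modify ribosomal RNA, stood at 11909 and 11580 in E2F1 cells against 3663 and 3208 in EV cells (1.78), and at 6049 and 5303 against 4714 and 4952 at rest. Nop58, its partner gene, and Nolc1, a nucleolar chaperone gene, were higher by 1.17 and 1.14, while Npm1 was the member that was lower (-0.42). In the ATF4 response 6 of 16 were higher and 4 lower. The largest difference was at Mthfd2, a mitochondrial folate enzyme gene that feeds purine synthesis, with 5743 and 4939 against 795 and 698 (2.84) after 1763 and 1026 against 804 and 826 at rest. Among its 4 lower members, Ddit4, an inhibitor of mTORC1, was lower by 1.08 on the log2 scale, and Trib3 stood at 144 and 153 against 312 and 259 (-0.93), a call that was lost without either E2F1 library or the first EV library of 12 h.

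Glycolysis genes were higher in 7 of 15 and lower in 3, with a median of 0.22. Ldha, the lactate dehydrogenase gene, stood at 24141 and 24851 against 11178 and 11943 (1.08), but it has the named pseudogenes Ldha-ps and Ldha-ps2, and the EV libraries at rest were at 13042 and 21128. The muscle-type pyruvate kinase gene Pkm and the enolase gene Eno1 were not called (-0.18 and -0.17). Of 19 sterol synthesis genes 13 were not called, 5 were higher and 1 lower, and with quantile normalization 3 were higher and 3 lower. Insig1, which retains the sterol sensor in the endoplasmic reticulum, differed by 0.77 and Mvd, which overlaps Gm20388, by -0.61. Both lines were below their resting levels for Sqle, a squalene enzyme gene that was higher by 0.48, and for Mvd. Of 21 interferon-stimulated genes 9 were measured, of which 3 were higher and 4 lower, with 1 higher and 5 lower without the second E2F1 library of 12 h. Ifit2, an antiviral RNA-binding protein gene, was higher by 2.01 (2596 and 2479 against 676 and 589), and Isg15 by 0.71. Stat2 and Irf9, which encode subunits of the ISGF3 complex, were lower (-1.12 and -0.85), as were Ifi44 and Ifi35. The calls of Isg15, Ifi44 and Ifi35 were each lost without 1 or 2 of the 4 libraries of 12 h, taken singly.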
